A study of Mus musculus with 22 samples.

Results

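The reference naive mouse embryonic stem cells (mESCs) of the study, 1 RNA-seq library, were set beside the 7 libraries of epiblast stem cells (mEpiSCs) that had been reverted with an AMPK activator and expanded for 10 passages (d16+10p). An autosomal gene belonged to the comparison when its level in the naive library lay above the highest or below the lowest of the 7 reverted libraries. Of 15386 autosomal genes measured, 4361 met this rule. With 1 naive library the comparison has no replicate check, and the values that chose the genes are given as a description.

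Each of the 22 libraries of the series was the only one of its condition. The naive cells were the Rex1-GFP line, XX cells of 129/Ola origin with a destabilized GFP driven by the promoter of Rex1 (Zfp42). The primed starting cells were Oct4GIP mEpiSCs, XX cells of 129/Ola origin with an Oct4-promoter eGFPiresPuro transgene, and 129/MSM mEpiSCs, XY cells from a cross of MSM/Ms and 129X1/SvJ mice that were kept on feeder fibroblasts. For reversion they were cultured on feeders with an activator, alone or with LIF, until day 16, and were then expanded on gelatin in 2iL, which is LIF with an inhibitor of MEK and an inhibitor of GSK3. Of the 7 reverted libraries, 5 came from Oct4GIP cells, namely metformin+LIF and either of AICAR and A769662 with and without LIF. The other 2 came from 129/MSM cells treated with AICAR and with AICAR+LIF. Each is a separate treatment or line, so the 7 are not replicates of a condition. The paper states that the naive and the AICAR-reverted Oct4GIP cells differ in genomic background. The naive cells were also kept in 2iL but came from another line and had never been treated with an activator, so that line, history and state cannot be told apart. The study's methods name 2 base media for 2iL culture without assigning them to libraries, so that a difference in medium cannot be told apart from these either.

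Naive mESCs correspond to the epiblast before implantation and mEpiSCs to the epiblast after it. In naive cells a network of transcription factors, among them Klf4, Klf2, Esrrb, Tfcp2l1 and Nanog, holds self-renewal while MEK is inhibited and the Wnt pathway is kept active. Cell lines in this state also differ in genotype, in chromosome number and in epigenetic history, and such differences remain when the factor network is the same.

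The naive library held 3189765 counts and the 7 reverted libraries from 1689495 to 3380314 (median 2638336). Levels are CPM, the share of a library's total count that fell on a gene times 1e6, with edgeR's TMM scaling factors, and a gene was measured when its mean over the 8 libraries was at least 1 CPM. A level of 3 counts, the floor used here, equalled 0.961 CPM in the naive library and from 0.931 to 1.68 CPM in the reverted ones. Intervals and floors cover counting error only.

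The naive library lay above all 7 reverted libraries for 2776 genes (18.0% of those measured) and below all 7 for 1585 (10.3%). Most of these genes lay close to the range. In bulk RNA, fewer cells of a type and less RNA per cell cannot be told apart. The naive level was at least 2-fold beyond the nearest reverted library, on CPM + 0.5, for 129 genes above (0.838%) and for 77 below (0.50%). Counting error alone left few of the smaller differences apart. The 95% Poisson intervals of the naive and the nearest reverted count did not overlap for 241 genes above and 79 below, among them 75 of the 129 and 19 of the 77. The balance between the directions depended on the scaling: 63.7% of the genes beyond the range lay above it with TMM factors, 59.2% with total counts and 51.9% with DESeq2 size factors (2220 above and 2059 below).

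Measured against the same 7 libraries, every other library of the series left the range more often than the naive one, for which the share was 28.3%. The 4 libraries taken after only 2 or 3 passages (d16+2–3p), all of Oct4GIP cells after AICAR with or without LIF, left it for 36.6% to 40.9% of genes. In the primed mEpiSCs it was 65.3% for Oct4GIP and 59.7% for 129/MSM. The order was sharper for large distances. The naive library lay at least 2-fold outside the range for 1.34% of genes, the d16+2–3p libraries for 3.03% to 3.89%, and the primed libraries for 21.1% and 18.4%.

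**Figure D1:**
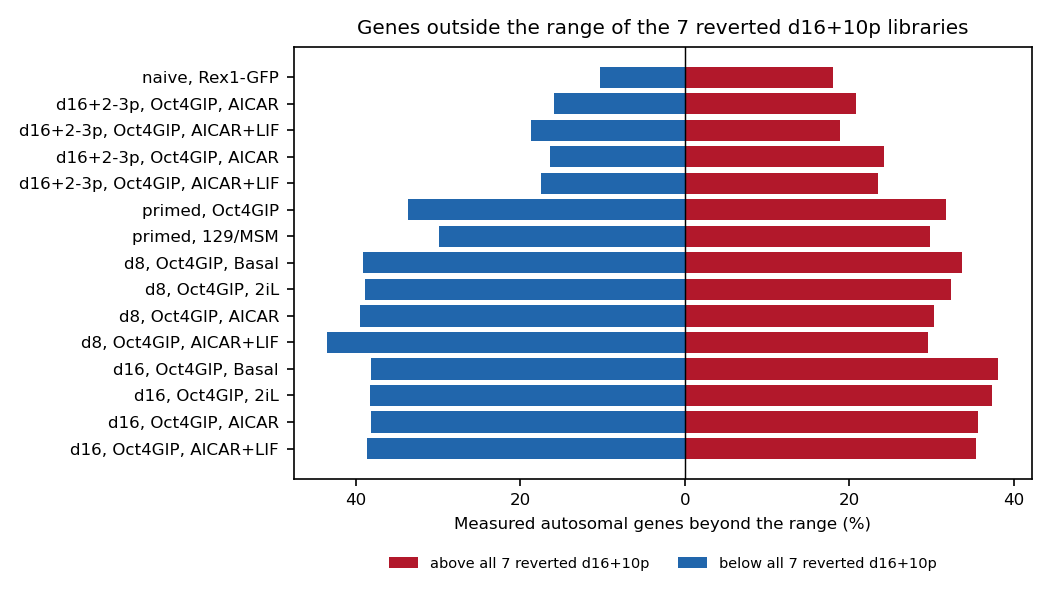
Share of measured autosomal genes (x axis, %) above (red) or below (blue) all 7 reverted d16+10p libraries, with 1 bar pair for each of the other 15 libraries (y axis: stage, line and treatment). The naive bars, 18.0% above and 10.3% below, are the shortest, and the d16+2–3p bars come next.

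The genes nearest to the 2-fold limit show what it divides. On the side above, Rundc3a (2.03-fold) lay just past it and Padi2 (1.99-fold) just short of it. On the side below, Ccdc136 (2.16-fold) lay just past it and Serping1 (1.99-fold) just short. At the edge of the range itself, Tspyl1 was at 61.16 CPM in the naive library and at 61.16 CPM in the highest reverted one.

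Bhmt and its paralog Bhmt2 were among the 5 genes farthest above the range. Bhmt, the enzyme that moves a methyl group from betaine to homocysteine and so makes methionine (chromosome 13, 93616675 to 93637961, minus strand, GRCm38), was at 34.6 CPM in the naive library (95% counting interval 28.4 to 41.8). The 7 reverted libraries held 1.14 CPM at the lowest, 2.79 at the median and 4.08 at the highest, so the naive level was 7.65-fold beyond the nearest. Bhmt2, a neighbouring paralog that uses another methyl donor (93655720 to 93674302, minus strand), was at 26.6 CPM against 0.621, 3.77 and 4.86 CPM, which is 5.05-fold. All 7 reverted libraries held low levels of both genes, with no overlap with the naive one. Dmgdh, which oxidizes the dimethylglycine that Bhmt releases, was looked at after its values were seen, since it is the next gene on the chromosome (93674433 to 93752833, plus strand). It was at 49.3 CPM against 2.79, 9.53 and 17.6 CPM, 2.75-fold beyond the nearest. The starts of Bhmt2 and Dmgdh lie 131 bases apart and are read in opposite directions. Within 100 kb on either side of the 3 genes, the 1 other measured gene was Arsb, a lysosomal sulfatase, at 3.20 CPM in the naive library and at most 3.14 CPM in a reverted one. The primed libraries held at most 0.374 CPM of any of the 3 genes. The d16+2–3p libraries held 0 to 0.762 CPM of Bhmt, 0.616 to 1.91 CPM of Bhmt2 and 2.92 to 6.16 CPM of Dmgdh. Between d16+2–3p and primed libraries only Dmgdh of the 3 was called by edgeR's quasi-likelihood test (higher in 4 of 4 libraries, Benjamini-Hochberg adjusted p = 0.0014). Primed libraries held 0 counts of Dmgdh, so the fitted difference depends on the prior count and is not given.

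Because Bhmt2 and Dmgdh were high together in the naive library, the 130 bases between their GENCODE starts are shown, from RefSeq on GRCm38.p6, at chr13:93674303-93674432 (plus strand, towards Dmgdh), with every CG in capitals. CG is the dinucleotide that DNA methylation acts on.
Between Bhmt2 and Dmgdh: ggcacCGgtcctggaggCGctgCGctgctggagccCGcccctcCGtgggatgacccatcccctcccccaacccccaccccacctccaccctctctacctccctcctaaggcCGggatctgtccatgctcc
No annotated gene covers this stretch. It held 6 CG. Of the 32851 promoters in the table, 38.9% held at least 6 CG in the window at the same distance from their start, and the median was 3. These counts describe the sequence, and DNA methylation was not measured in these files.

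The other leading genes above the range were of several kinds. Igsf23, a member of the immunoglobulin superfamily, lay farthest beyond it, at 10.2 CPM against 0, 0.329 and 0.621 CPM (9.59-fold). Ly6a, the surface antigen Sca-1, was at 85.8 CPM against 0.310, 1.94 and 11.5 CPM (7.19-fold), and its highest reverted library was AICAR+LIF of Oct4GIP. Parm1, a mucin-like membrane protein, was at 43.5 CPM against 0, 1.32 and 5.42 CPM (7.43-fold). The 3 genes were near or under the floor in most reverted libraries. They differed in primed cells: primed 129/MSM mEpiSCs held 107 CPM of Parm1, 10.3 of Ly6a and 0.322 of Igsf23.

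St8sia1, the synthase of the ganglioside GD3, was at 54.8 CPM against 2.79, 4.95 and 11.3 CPM (4.67-fold). Npr3, the clearance receptor of natriuretic peptides, was at 19.9 CPM against 0, 1.97 and 4.05 CPM (4.47-fold). Hhip, an inhibitor of hedgehog ligands, was at 10.6 CPM against 0, 0.986 and 1.90 CPM (4.61-fold). Hhip lies on chromosome 8, whose genes were high in the naive library as a group. With each chromosome centred on its own median, the log2 ratio of Hhip to the nearest library was 1.76. In primed cells Hhip was at 28.8 CPM (Oct4GIP) and 5.47 CPM (129/MSM), and it was lower at d16+2–3p by edgeR (log2 difference −5.13, standard error 0.93, adjusted p = 0.00022).

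Col11a1, a fibrillar collagen chain, was at 14.4 CPM against at most 3.10 CPM. Misp, a protein of mitotic spindle positioning, was at 10.9 CPM against at most 2.30 CPM, and Apod, a lipocalin, was at 22.1 CPM against at most 5.67 CPM. Rac3, a small GTPase on chromosome 11, was at 15.7 CPM in the naive library against 2.66, 3.46 and 3.95 CPM. As a ratio of highest to lowest, this reverted range was the tightest of the 12 leading genes above. The log2 ratio of Rac3 to the nearest library was 1.86. It was 1.65 with each chromosome centred and 1.40 with counts thinned to the same depth. For each of the 12, the counting intervals of the naive and the nearest reverted library did not overlap.

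A few more of the genes at least 2-fold above the range are given as examples, of which all but Krt8 were picked after their values were seen. Dsp, the desmosome component desmoplakin, was at 107 CPM against 14.8, 16.1 and 46.1 CPM. Itga3, an integrin chain that binds laminins, was at 56.4 CPM against 5.67, 10.5 and 18.3 CPM. Cdh3, the adhesion molecule P-cadherin, was at 40.03 CPM against 4.95, 11.5 and 14.3 CPM. Krt8, an epithelial keratin and a member of the primed list below, was at 32.7 CPM against 0.942, 8.94 and 10.1 CPM (3.12-fold). In primed Oct4GIP mEpiSCs, Dsp, Itga3, Cdh3 and Krt8 were at 25.8, 89.3, 34.7 and 43.7 CPM in this order, and in primed 129/MSM mEpiSCs at 181, 124, 17.7 and 627 CPM. The most abundant gene of the 129 was Ak4, a mitochondrial adenylate kinase, at 428 CPM against 40.8, 123 and 208 CPM (2.06-fold).

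**Figure D2:**
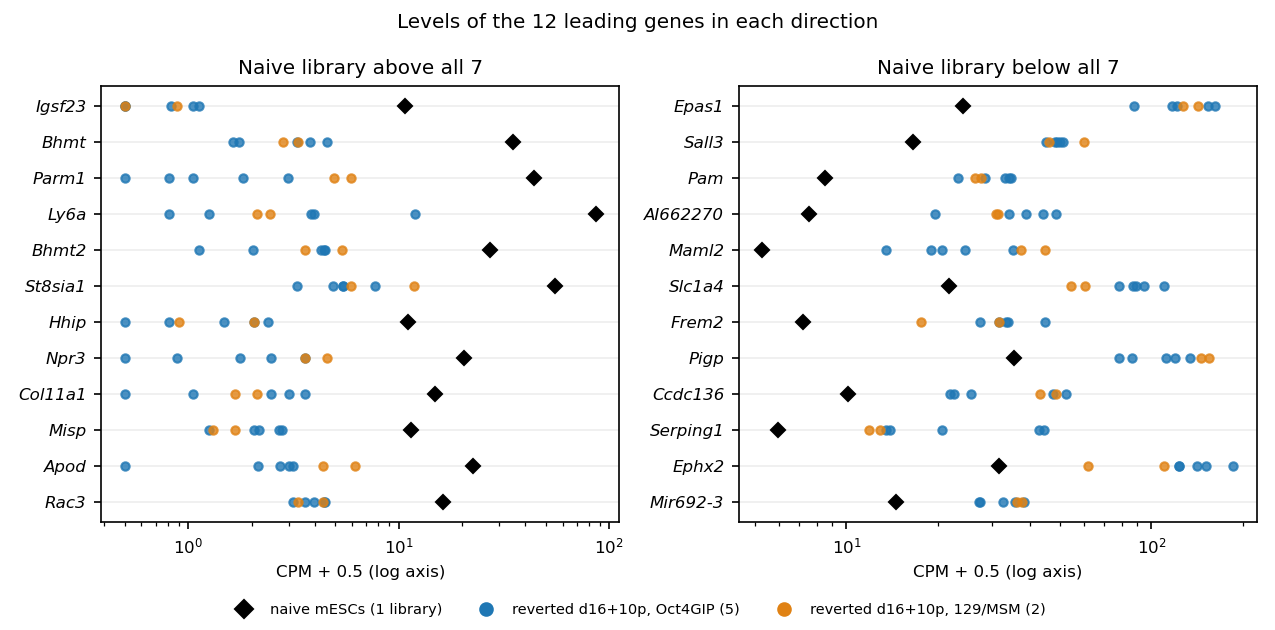
Levels (x axis, CPM + 0.5, log axis) of the 12 leading named genes above (left) and below (right) the range, for the naive library (black diamond) and the 7 reverted d16+10p libraries (blue Oct4GIP, orange 129/MSM). Distances to the nearest reverted library run from 9.59-fold (Igsf23) to 3.64-fold (Rac3) on the left and from 3.61-fold (Epas1) to 1.87-fold (Mir692-3) on the right.

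Below the range, Epas1, the hypoxia-inducible factor HIF-2α (chromosome 17, 86753700 to 86833410, plus strand), stood out. It was at 23.7 CPM in the naive library (95% counting interval 18.6 to 29.7) and at 86.9 CPM at the lowest, 127 at the median and 161 at the highest in the reverted ones, a distance of 3.61-fold. The d16+2–3p libraries held 116 to 191 CPM, so that all 11 reverted libraries lay above the naive one. The primed lines differed widely, with 4.86 CPM in Oct4GIP and 98.2 CPM in 129/MSM.

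Sall3, a zinc finger transcription factor of the spalt family, was at 16.01 CPM against 44.7, 48.4 and 59.5 CPM (2.74-fold), and the 7 reverted libraries agreed closely. It was at 1.49 and 1.61 CPM in the primed libraries and was higher at d16+2–3p by edgeR (log2 difference 4.97, standard error 0.84, adjusted p = 0.00011). Ephx2, the soluble epoxide hydrolase, had the same order of levels, with 2.61 and 2.90 CPM in primed libraries, 31.1 CPM in the naive one and 61.6, 123 and 185 CPM in the reverted ones. For both genes the naive level lay between the primed and the reverted levels.

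Pam, which amidates neuropeptides, was at 8.005 CPM against 22.7, 28.0 and 34.1 CPM (2.73-fold). Slc1a4, a transporter of neutral amino acids that include serine, was at 21.1 CPM against 53.9, 86.4 and 109 CPM (2.51-fold). Primed cells (Oct4GIP and 129/MSM) held 56.4 and 80.8 CPM of Pam, above all 7 reverted libraries, and 177 and 89.2 CPM of Slc1a4, of which the second lay inside the reverted range. Both genes were lower at d16+2–3p than in primed libraries by edgeR (adjusted p = 0.0007 and 0.0023, log2 differences −1.84 and −2.24). The d16+2–3p libraries held 11.7 to 29.6 CPM of Pam, all above the naive level. They held 19.1 to 33.2 CPM of Slc1a4, so that the naive level of Slc1a4 lay inside the early reverted range.

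Maml2, a coactivator of Notch signalling, was at 4.80 CPM against 12.9, 23.9 and 44.2 CPM (2.53-fold). Frem2, an extracellular matrix protein, was at 6.72 CPM against 17.0, 31.2 and 44.1 CPM (2.43-fold). With counts thinned to the same depth, the log2 ratio of Frem2 was −0.81 in place of −1.28, short of 2-fold. Pigp, a subunit of the enzyme that starts synthesis of glycosylphosphatidylinositol anchors, was at 34.9 CPM against 77.9, 119 and 154 CPM (2.22-fold). The remaining leading genes below were AI662270 (2.59-fold), Ccdc136 (2.16-fold), Serping1, the C1 inhibitor of complement (1.99-fold), and Mir692-3 (1.87-fold). The counting intervals of Serping1 overlapped, and those of the other 11 did not.

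Genes with predicted names and pseudogenes were left out of the leading genes, and they made up 295 of the 2052 genes above and 118 of the 968 below that reached 10 CPM on their higher side. Several had larger distances than any named gene. Gm36816, annotated as antisense, was at 41.9 CPM in the naive library and at most 1.24 CPM in a reverted one (24.4-fold). On the other side, Gm42047, a long noncoding RNA, was at 15.4 CPM against 134, 275 and 421 CPM (8.48-fold), and Gm47939, Gm47761, Gm43549 and Gm48362 were 3.75-fold to 6.93-fold below. All 5 had the AICAR library of Oct4GIP as their lowest reverted library, and all 5 were higher at d16+2–3p than in primed libraries by edgeR (adjusted p from 0.00023 to 0.0011, log2 differences 2.30 to 3.46). Reads shared with near-identical copies elsewhere in the genome could be assigned to either, so these levels are uncertain. Long noncoding RNAs made up 16.9% of the 77 genes below and 3.88% of the 129 above, against 5.33% of all measured genes, and protein-coding genes 67.5% and 84.5%, against 81.0%.

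Genes of a few chromosomes lay beyond the range together. For genes of at least 10 CPM, the median log2 ratio to the mean of the 7 reverted libraries was 0.38 for chromosome 8 in the naive library. In the reverted libraries it ran from −0.21 to 0.34, and the highest of these, AICAR+LIF of 129/MSM, stood apart from the other 6. On chromosome 8, 38.5% of measured genes lay above the range and 1.98% below. Chromosome 11 had a smaller shift of 0.14, against −0.10 to 0.05 in the reverted libraries, with 31.1% of genes above and 5.79% below. Chromosome 6 lay just past the reverted medians, at 0.068 against −0.077 to 0.040, with 23.3% above and 9.03% below. Chromosome 15 was shifted the other way, at −0.24, inside a wide reverted range of −0.31 to 0.24. There 6.65% of genes lay above and 15.9% below.

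Once each chromosome was centred on its own median in every library, these imbalances shrank to 11.2% above and 13.3% below on chromosome 8, and to 16.6% and 12.2% on chromosome 11. On chromosome 6 the shares became 17.7% above and 11.9% below. Over all autosomes, centring gave 2317 genes above and 1916 below, and 118 and 85 at 2-fold. Leaving chromosomes 8, 11 and 15 out, a choice made after the data were seen, gave 2047 above and 1401 below. The chromosome number of the cells was not measured in these files, and its part in these medians was not tested.

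**Figure D3:**
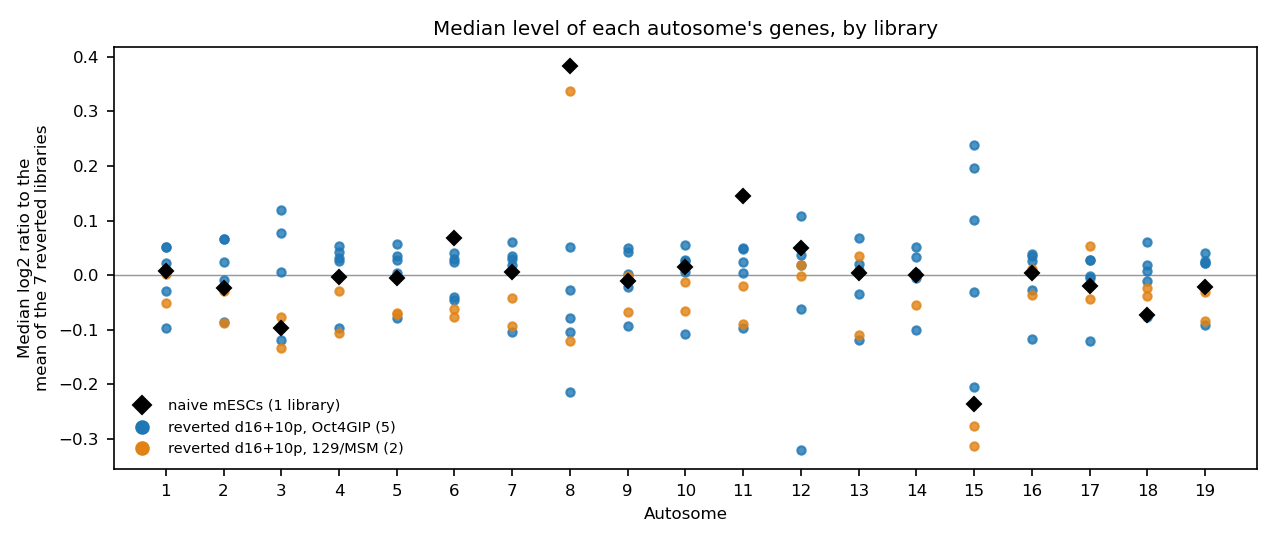
Median log2 ratio of genes with at least 10 CPM to the mean of the 7 reverted libraries (y axis) for each autosome (x axis), in the naive library (black diamonds) and the 7 reverted d16+10p libraries (blue Oct4GIP, orange 129/MSM). The naive median is 0.38 on chromosome 8 and 0.14 on chromosome 11, and the A769662 library is at −0.32 on chromosome 12.

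Of 29 listed factors and markers measured, 4 lay above the range and 4 below (all genes: 18.0% and 10.3%), and 0 was as much as 1.5-fold beyond it. Against the 5 Oct4GIP libraries alone, 10 lay above and 4 below (all genes: 4090 and 2818 of 15386). Klf4, a target of LIF signalling, was at 332 CPM against 97.03, 150 and 283 CPM, 1.18-fold beyond the AICAR library of 129/MSM. Its log2 ratio to the nearest library was 0.23, and 1.05 against Oct4GIP alone. Klf2, at 345 CPM against 158, 237 and 299.9 CPM, Nr5a2 (1.06-fold) and Nanog (1.04-fold) also lay above. Klf2 lies on chromosome 8 and Nanog on chromosome 6, and with chromosomes centred both lay inside the range. Tfcp2l1 was 1.08-fold below, at 1191 CPM against 1284 CPM in the lowest reverted library. The other 3 below were Sall4, Dppa2 and Lin28a. Lin28a, an RNA-binding protein that rises towards the primed state, was at 42.6 CPM against 49.1, 107 and 131 CPM, and at 306 to 390 CPM at d16+2–3p. Zfp42, Esrrb, Pou5f1 and Sox2 lay inside the range.

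Several markers of the primed state were near the floor in all 8 libraries. Of 28 autosomal genes on that list, 9 did not reach a mean of 1 CPM, among them Fgf5, Foxa2, Sox17 and Cer1. Of the 19 measured, 5 lay above the range and 1 below (all genes: 18.0% and 10.3%), and with thinned counts 3 and 2. Otx2 was at 6.40 CPM in the naive library and at most 5.81 CPM in a reverted one, while primed libraries held 84.8 and 407 CPM. Eomes was at 12.2 CPM against 4.05, 5.97 and 9.49 CPM, and Nes, Wnt3 and Krt8 were the other 3 above. Dnmt3a, a de novo DNA methyltransferase, was the 1 below, at 40.3 CPM against 41.4 CPM in the lowest reverted library.

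The list with the largest share below the range was that of the integrated stress response, in which the factor ATF4 raises amino acid synthesis and transport. Of 25 measured members, 7 lay below and 1 above (all genes: 10.3% and 18.0%), and the median log2 ratio of naive to the reverted mean was −0.53, against 0.02 over all genes. Atf4 itself was at 206 CPM against 329, 428 and 502 CPM, 1.60-fold below the lowest. It lies on chromosome 15, whose median log2 ratio was −0.24 in the naive library and −0.31 to 0.24 in the reverted ones. With chromosomes centred, the log2 ratio of Atf4 to the nearest library was −0.48. The other 6 were Ddit3, a stress-induced transcription factor, Trib3, an inhibitor in the same pathway, Psat1 and Psph, enzymes of serine synthesis, Aldh1l2, a mitochondrial folate enzyme, and Stc2, a secreted glycoprotein. They lay 1.01-fold (Trib3) to 1.30-fold (Aldh1l2) beyond the nearest library, and Atf4 was the only one of the 8 whose counting intervals did not overlap. Cebpb was the 1 above. For Ddit3 the measured entry is meant, and another entry of that symbol was under a mean of 1 CPM. The naive levels were not low against all reverted cells. Atf4 was at 131 to 280 CPM and Psat1 at 107 to 190 CPM at d16+2–3p, and the naive values of 206 and 355 CPM were within or above these. Both genes were lower at d16+2–3p than in primed libraries by edgeR (log2 differences −1.63 and −1.76, adjusted p = 0.00038 and 0.0066). With DESeq2 size factors 9 members lay below, and with thinned counts 11.

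The list with the largest share above, apart from 6 trophoblast genes, held the markers of 2-cell-like cells, a rare state in mESC cultures that resembles the 2-cell embryo. Of 14 measured members, 7 lay above and 0 below (all genes: 18.0% and 10.3%). The median log2 ratio was 1.51, against 0.02 over all genes. Zscan4f was at 16.3 CPM against 0, 2.23 and 10.6 CPM, Zscan4c at 12.8 CPM against 0.761, 1.68 and 9.63 CPM, and Tmem92 at 8.97 CPM against 0, 2.03 and 6.21 CPM. Usp17lc, which encodes a deubiquitinating enzyme, was at 3.84 CPM against 0, 0.810 and 2.17 CPM. In each of Zscan4f, Zscan4c and Tmem92 the highest reverted library was metformin+LIF, and the counting intervals overlapped. The d16+2–3p libraries reached far higher, from 2.19 to 83.9 CPM of Zscan4f, and primed libraries held 0 counts of Zscan4f and Zscan4c. With thinned counts 5 of the 14 lay above. Zscan4 and Usp17l genes are near-identical copies whose reads can be assigned to one another, so these 7 are not separate measurements.

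**Figure D4:**
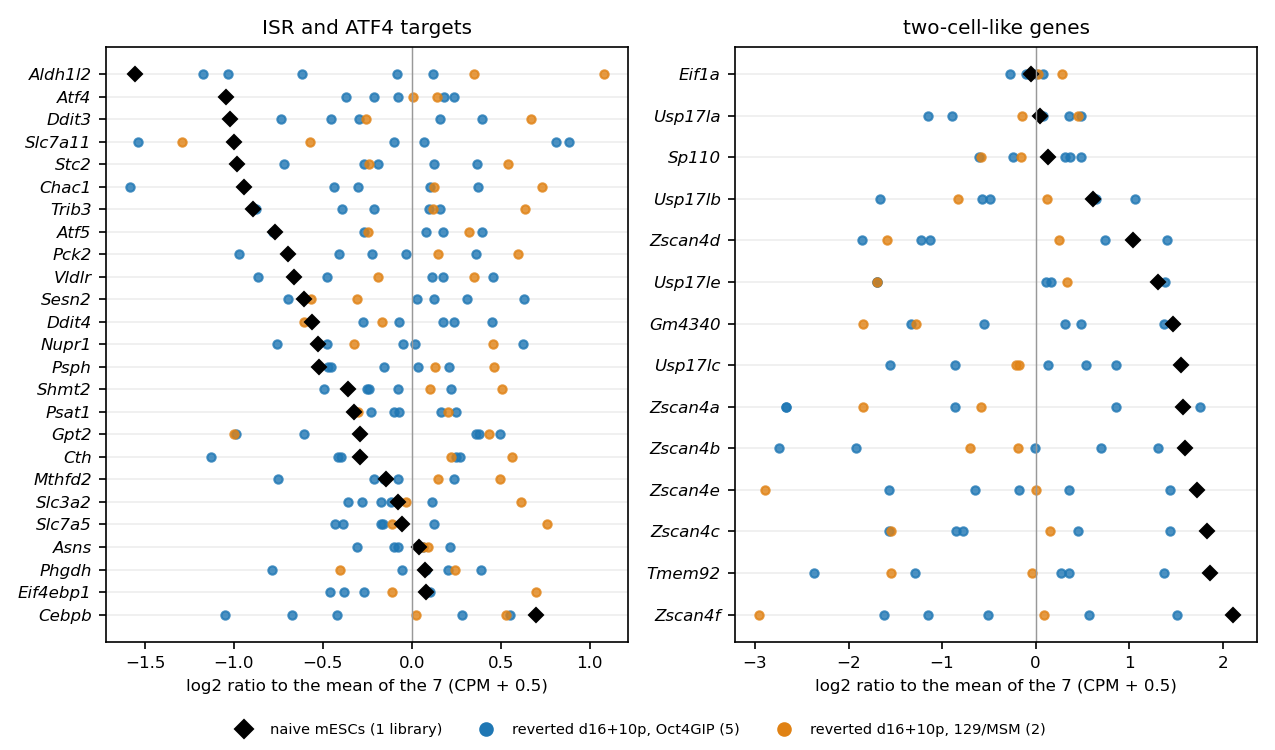
Log2 ratio to the mean of the 7 reverted libraries on CPM + 0.5 (x axis) of each measured member (y axis) of the stress response list (left, 25 genes) and the 2-cell-like list (right, 14 genes), in the naive library (black diamonds) and the 7 reverted d16+10p libraries (blue Oct4GIP, orange 129/MSM). Diamonds lie left of all 7 points for 7 genes on the left and right of all 7 for 7 genes on the right.

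The pathways that 2iL acts on were examined next, and their counts are to be read against the 18.0% of all genes above and 10.3% below. Of 16 measured targets of ERK, the kinase that the MEK inhibitor keeps off, 5 lay above and 1 below, and with thinned counts 4 and 3. Fos was at 88.4 CPM in the naive library. In the reverted libraries it was at 44.7 CPM (AICAR+LIF) and 44.0 CPM (A769662), both of Oct4GIP, and at most 1.90 CPM in the other 5. Egr1 had a like spread, at 179 CPM against 0, 1.12 and 152 CPM. For both genes the same 2 reverted libraries stood far above the other 5. Ier3, another early response gene, was at 3.84 CPM against 1.24, 1.55 and 2.199 CPM (1.61-fold). The feedback gene Etv5, at 336 CPM, was 1.01-fold below the range. Of 15 Wnt and GSK3 targets, 3 lay above and 0 below, namely Tcf7, Cdx2 and Notum, a secreted inhibitor of Wnt, at 95.4 CPM against 19.8, 57.8 and 77.3 CPM. Of 18 genes of the LIF and STAT3 pathway, 3 lay above (Klf4, Fos and Pim1) and 4 below (Tfcp2l1, Il6st, Socs2 and Icam1). AMPK itself, the kinase that the activators address, had 1 of 11 genes above the range. This was the catalytic subunit Prkaa2, at 60.8 CPM against 26.3, 36.9 and 49.98 CPM.

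**Figure D5:**
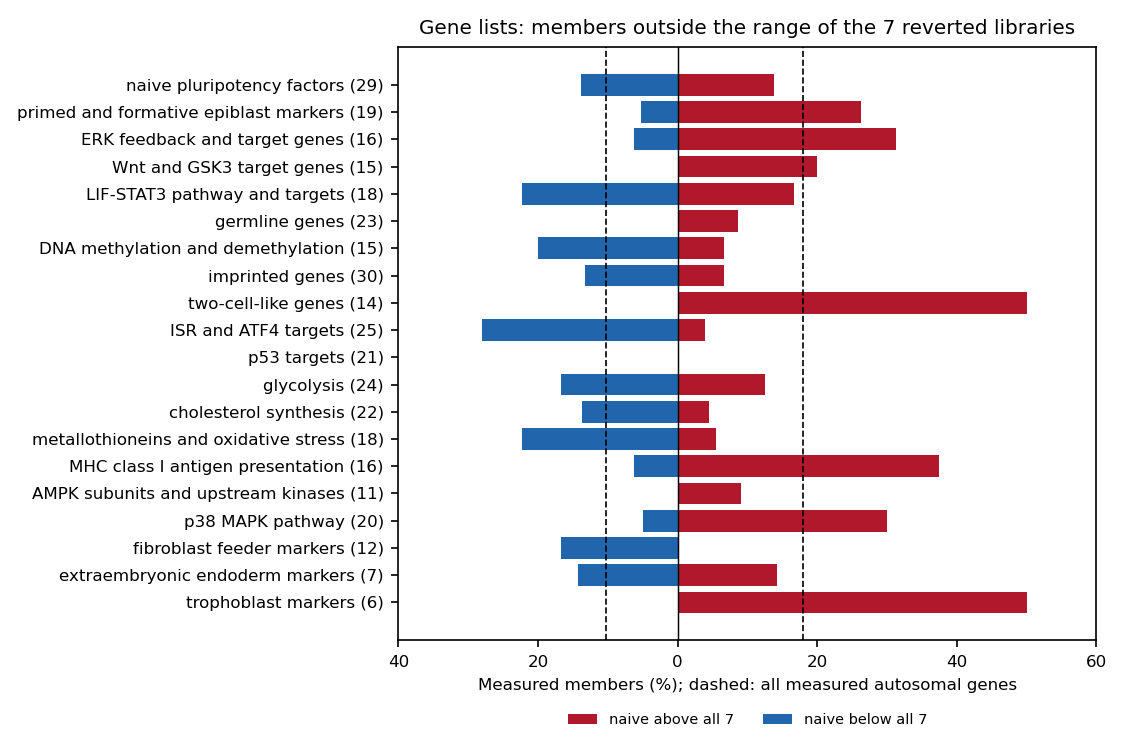
Share of measured members (x axis, %; number in brackets) of 20 gene lists with the naive level above (red) or below (blue) all 7 reverted libraries. Dashed lines mark all measured autosomal genes (18.0% above, 10.3% below), and the 2-cell-like bar above and the stress response bar below reach well past them.

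Of 15 genes of DNA methylation (1 above and 3 below, against 18.0% and 10.3% of all genes), Zfp57 lay above by 1.02-fold, and Dnmt1 (1.09-fold), Dnmt3a and Tet1, which oxidizes methylated cytosine (1.17-fold), lay below, and with total counts or DESeq2 size factors 0 lay above. Of 30 imprinted genes, 2 lay above and 4 below. Peg3, expressed from the paternal allele, was at 52.5 CPM against 77.4, 132 and 180 CPM (1.47-fold). Cobl was at 294 CPM against 127, 193 and 216 CPM, on chromosome 11. Of 23 germline genes, 2 lay above and 0 below, yet their median log2 ratio was −0.56. With the 5 Oct4GIP libraries alone, 8 of the 23 lay below (all genes: 2818 of 15386).

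The counts of metabolic lists are likewise to be read against 18.0% of all genes above and 10.3% below. Of 24 genes of glycolysis, 3 lay above. All 3 lie on chromosome 6, where 23.3% of measured genes lay above the range and 9.03% below. The glucose transporter gene Slc2a3 was at 2006 CPM against 857, 1176 and 1552 CPM, and Tpi1 and Eno2 were the others. The 4 below included Pkm, pyruvate kinase, at 1484 CPM against 1621 CPM in the lowest reverted library. Of 22 genes of cholesterol synthesis 1 lay above and 3 below, and of 18 metallothionein and redox genes 1 above and 4 below. These 4 were Gclc and Gclm, which form the enzyme that starts glutathione synthesis, and the glutathione transferases Gsta4 and Gstm1. Gstm1 was at 49.95 CPM against 56.3, 125 and 198 CPM.

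Of 16 genes of antigen presentation by MHC class I, 6 lay above and 1 below (all genes: 18.0% and 10.3%). H2-K1 was at 21.1 CPM against 8.80, 11.7 and 16.3 CPM, and its partner B2m at 23.7 CPM against 10.1, 13.9 and 16.8 CPM. Psmb10, a subunit of the immunoproteasome on chromosome 8, was at 11.8 CPM against at most 6.70 CPM. H2-Q1 had 0 counts in the naive library, which allows up to 0.961 CPM, and 1.22 to 4.04 CPM in the reverted ones, and the counting intervals overlapped. It shares sequence with other H2-Q genes. Of 20 genes of the p38 kinase pathway, 6 lay above and 1 below, and of these Mapk13, a p38 kinase, was at 8.005 CPM against 0.986, 1.90 and 2.79 CPM (2.58-fold). The counting intervals of Mapk13 overlapped, and with thinned counts its log2 ratio was 0.505 in place of 1.37. Of 21 targets of p53, 0 lay beyond the range on either side.

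Markers of other cell types followed, again beside 18.0% of all genes above the range and 10.3% below. Of 24 fibroblast markers, 12 did not reach a mean of 1 CPM, and the naive library lay below for 2 and above for 0. Defining collagens were near the floor, with Col1a1 at 0.640 CPM in the naive library and at most 3.81 CPM in a reverted one. The summed level of the 12 measured, most of it Fn1, which pluripotent cells also express, was 2453 CPM in the naive library and 2766 to 3738 CPM in the reverted ones. Of 7 endoderm markers measured, Gata4 lay above, at 6.40 CPM against at most 3.10 CPM, and Lamb1 below, while Gata6, Sox17, Sox7, Afp and Ttr were under 1 CPM. The 7 summed to 242 CPM in the naive library and to 120 to 619 CPM in the reverted ones. Of 6 trophoblast genes measured, Cdx2 (3.20 CPM), Eomes and Krt8 lay above, and Elf5, Gata3, Hand1 and Tpbpa were under 1 CPM. The 6 summed to 136 CPM in the naive library and to 60.3 to 170 CPM in the reverted ones, and with thinned counts 1 of the 6 lay above. Whether other cells had a part in any of these differences was not tested.

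To describe these genes in primed and early reverted cells, d16+2–3p and primed libraries were compared with edgeR (4 against 2 libraries). The rule used none of these libraries. The d16+2–3p libraries are still not independent of it, because they share line and treatment with some of the reverted libraries that set the range. The early reverted libraries were all of Oct4GIP cells and the primed ones were of both lines. The p-values rest on a spread estimated over all 22 libraries in 6 groups. These groups pool different treatments, lines or passages, so that this is not a spread between replicates of a condition. Of 18739 genes tested, 7180 were called at an adjusted p under 0.05, and of the measured autosomal genes 20.4% were higher and 18.9% lower at d16+2–3p. Of the 128 genes tested that the naive library held at least 2-fold above the range, 32 (25.0%) were higher and 39 (30.5%) lower, with a median log2 difference of −0.73. Of the 71 tested that it held at least 2-fold below, 26 (36.6%) were higher and 13 (18.3%) lower, with a median of 0.46. Over all measured genes the median was 0.04. In the whole set above the range 16.5% were higher and 25.6% lower, with a median of −0.14. In the whole set below, 27.7% were higher and 14.5% lower, with a median of 0.24. These shares describe the sets, and whether they depart from those of all genes was not tested. Genes above the range were chosen for low levels in reverted cells, and genes below it for high ones. Related early reverted libraries can therefore lean the same way through the choice of genes alone. The direction of these medians and shares thus cannot place the sets between primed and reverted cells.

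Examples of each kind lie on both sides. Of genes above the range, Itga3 (log2 difference −2.99, standard error 0.50, adjusted p = 0.00011, edgeR) and Grin1, a subunit of the NMDA receptor (−4.77, standard error 0.90, adjusted p = 0.00034), were lower in the early reverted libraries than in primed ones, and the naive library held them at 56.4 and 79.4 CPM. Aurkc, a kinase of germ cell meiosis, was higher in 4 of 4 early reverted libraries than in the primed ones, which held 0 counts (edgeR, adjusted p = 0.00044). It was at 38.1 CPM in the naive library against 3.24, 11.2 and 18.4 CPM. Of genes below, Prnp, the prion protein, was lower in early reverted than in primed libraries by edgeR (log2 difference −3.03, standard error 0.35, adjusted p = 1.8e-06), and the naive library, at 3.20 CPM against 9.89, 17.4 and 25.5 CPM, held less of it than any reverted library did.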

How the data were processed

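The authors made the deposited table of counts per gene from stranded poly(A) libraries, sequenced as single reads and aligned with Bowtie2 2.2.5 to Ensembl GRCm38 release 100 cDNA and noncoding RNA. They kept reads with a mapping quality of at least 1, and normalized with limma voom for their own displays, which were not used here. The transcript table and the table of detected genes were not used here.

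Groups and libraries follow the submitters' labels. Counts were scaled by TMM factors over all 22 libraries (edgeR 4.0.16 in R 4.3.3). Gene positions came from GENCODE M21 (GRCm38), with a match for 33878 of 34489 genes, and sex chromosomes were left out. Ratios used a pseudocount of 0.5 CPM, and counting intervals were exact 95% Poisson intervals. With 1 naive library, no test was made of it. The d16+2–3p and primed libraries were compared in edgeR by a quasi-likelihood test, fitted on all 22 libraries in 6 groups with Benjamini-Hochberg adjustment over all 18739 genes tested. The test was checked on simulated counts.

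The members and lists were chosen with earlier results of these data known. The leading genes were, per direction, the 12 with the largest ratio to the nearest reverted library among genes with at least 10 CPM on the higher side, predicted names and pseudogenes left out, and listed genes at least 1.5-fold beyond the range or of the core network were named too. Genes named outside this rule are identified as such or given as members of their list. Alternatives were total counts, DESeq2 1.42.0 size factors, other filters, pseudocounts and gene sets, thinned counts, chromosome centring, Oct4GIP libraries alone and leaving out each library.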

Additional observations from a re-analysis of the deposited data

Results flagged for a closer look

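Among 47 groups of 7 reverted values examined for a sample far from the others, 3 were flagged, and chance flags about 1 in 20 groups. Apod had 0 counts (0 CPM) in the metformin+LIF library, away from the other 6 reverted libraries. Nanog was at 471 CPM in the AICAR library of Oct4GIP, below the other 6, and this library set the lower end of the Nanog range but not the upper end that the naive library passed. The median log2 ratio of chromosome 12 was −0.32 in the A769662 library of Oct4GIP, below the other 6. The cause of these values was not tested.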

How the results depend on the processing

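No paired analysis was possible because the naive group holds 1 library each reverted library is a condition of its own, and the labels give the d16+2–3p and primed libraries no shared replicate numbers. Genes above the range numbered 2776, and 4589 without a filter on low levels, 1759 at a mean of at least 10 CPM and 241 where counting intervals had to be apart (2972 to 3270 with any 1 reverted library left out). Genes below numbered 1585, and 2818 against the 5 Oct4GIP libraries alone and 79 with intervals apart (1696 to 2014). The 129 genes at least 2-fold above became 284 without a filter, 27 at 10 CPM, 300 against Oct4GIP alone and 77 with a pseudocount of 2 CPM (139 to 177). The 77 below became 23, 222 and 22 at 10 CPM, against Oct4GIP alone and with that pseudocount, and 196 with counts thinned to the same depth. Leaving out 1 library gave 84 to 123, and the 123 came without AICAR+LIF of 129/MSM. The balance of directions was 63.7% above with TMM, 51.9% with DESeq2 size factors, 54.7% with centred chromosomes and 52.9% with thinned counts. The mean share beyond the range over the d16+2–3p libraries was 38.9%, and 41.4% at 10 CPM. With chromosomes centred, Klf2 and Nanog lay inside the range, with log2 ratios of −0.0199 and −0.0145 to the highest reverted library. Of 234 values for 39 named genes under 6 alternatives, 212 moved by less than the spread of the 7 libraries and 20 moved by more. The other 2, those of Klf2 and Nanog, changed sign in this way. The edgeR count of 7180 ran from 5081 to 7284 over its alternatives. The causes of these changes were not tested, beyond the smaller or larger gene and library sets themselves. Depth limits genes of a few CPM: 3 counts equal 0.961 CPM in the naive library, so that small differences at such levels were not detectable.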
